A study of Mus musculus with 35 samples.

Results

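Brown fat releases proteins that act on nearby cells or on other organs, often called batokines, and 10 such secreted factors were followed here in interscapular brown adipose tissue (iBAT) of mice during cold exposure. The 10 genes, Bmp8b, Fgf21, Nrg4, Gdf15, Il6, Metrnl, Cxcl14, Slit2, Ptgds and Epdr1, were read from a table of 55421 gene identifiers. They were chosen from known batokine roles, and Bmp8b also from its rise in prolonged cold in these same libraries. Its levels are therefore given as a description with no test, whereas the 9 other genes were tested. Those 9 were chosen for their known roles rather than for a pattern, although earlier results of these data were known. The libraries came from male C57BL/6J mice aged 9 to 10 weeks. There were 7 groups of 5 mice each, 35 libraries in all. Control mice stayed at colony room temperature (RT, 24 °C), and the cold groups spent 6 hours or 1, 2, 3, 4 or 5 days at 6 °C. Mice in the cold were housed individually without nesting material, and the labels do not give these conditions for the controls, so temperature and housing cannot be told apart. Each library was made from the RNA of 1 iBAT pad of 1 mouse, with a kit that reads the 3′ ends of transcripts.

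Brown adipocytes burn fuel to make heat when noradrenaline from sympathetic nerves reaches them. The factors they and neighbouring cells secrete fall into several classes. BMP8B and GDF15 belong to the transforming growth factor beta superfamily. FGF21 is an endocrine fibroblast growth factor that acts through FGFR1 and its co-receptor beta-Klotho. NRG4 is an epidermal growth factor-like ligand of ERBB receptors. IL-6, METRNL and CXCL14 act on immune cells among others, SLIT2 signals through ROBO receptors, and PTGDS makes prostaglandin D2 and carries lipids. EPDR1 is a secreted protein found in brown fat.

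The libraries held 3846016 to 6047247 counts, with a median of 4902083. Levels are given as CPM, counts scaled to the library total with normalisation factors from the trimmed mean of M values (TMM), and 1 count was worth 0.165 CPM in the largest library and 0.26 CPM in the smallest. Because this bulk RNA comes from a whole pad, fewer cells of a type and less RNA per cell cannot be told apart. Markers of brown adipocytes were abundant in every group, with all 7 detected and a summed level of 12680 to 23810 CPM per mouse. The summed level of 6 macrophage markers was 59.4 to 133.9 CPM at RT and 74.98 to 219.3 CPM at 4 days. Markers of skeletal muscle, which lies against this depot, ranged from 2.31 to 767 CPM among single mice.

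Against RT, the factors did not move as 1 group. Nrg4 fell at each of the 6 durations. Ptgds rose from 1 day on, and Cxcl14 rose from 6 hours to 4 days with its highest mean at 1 day. Metrnl rose at 6 hours, 3 days and 4 days. Bmp8b, Gdf15 and Fgf21 were near 0 at RT and were present in the cold. A gene was called where the adjusted p of edgeR's quasi-likelihood test was below 0.05. Of the 9 tested factors, 5 passed the filter on low counts at 6 hours, and 3 of them were higher (Metrnl, Cxcl14 and Epdr1) and 1 lower (Nrg4), where 21.5% of the 10593 genes tested were called higher and 21.0% lower. At 1 day, 2 of 6 were higher and 1 lower, against 18.9% and 17.8% of all genes. At 2 days, 2 of 4 were higher and 1 lower, against 16.4% and 14.7%. At 3 days, 4 of 6 were higher and 1 lower, against 18.3% and 15.5%. At 4 days, 3 of 4 were higher and 1 lower, against 19.4% and 18.6%. At 5 days, 2 of 5 were higher and 1 lower, against 20.2% and 18.6%. Gdf15 is among those called higher at 3 and 5 days, where it passed the filter only through the cold libraries and had to differ, so its calls there are no support. Epdr1 at 6 hours and Ptgds from 1 to 5 days passed the filter mainly through the cold libraries, which limits those calls. All 6 comparisons used the same 5 control libraries, and the genes that passed the filter did not form the same set each time.

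**Figure D1:**
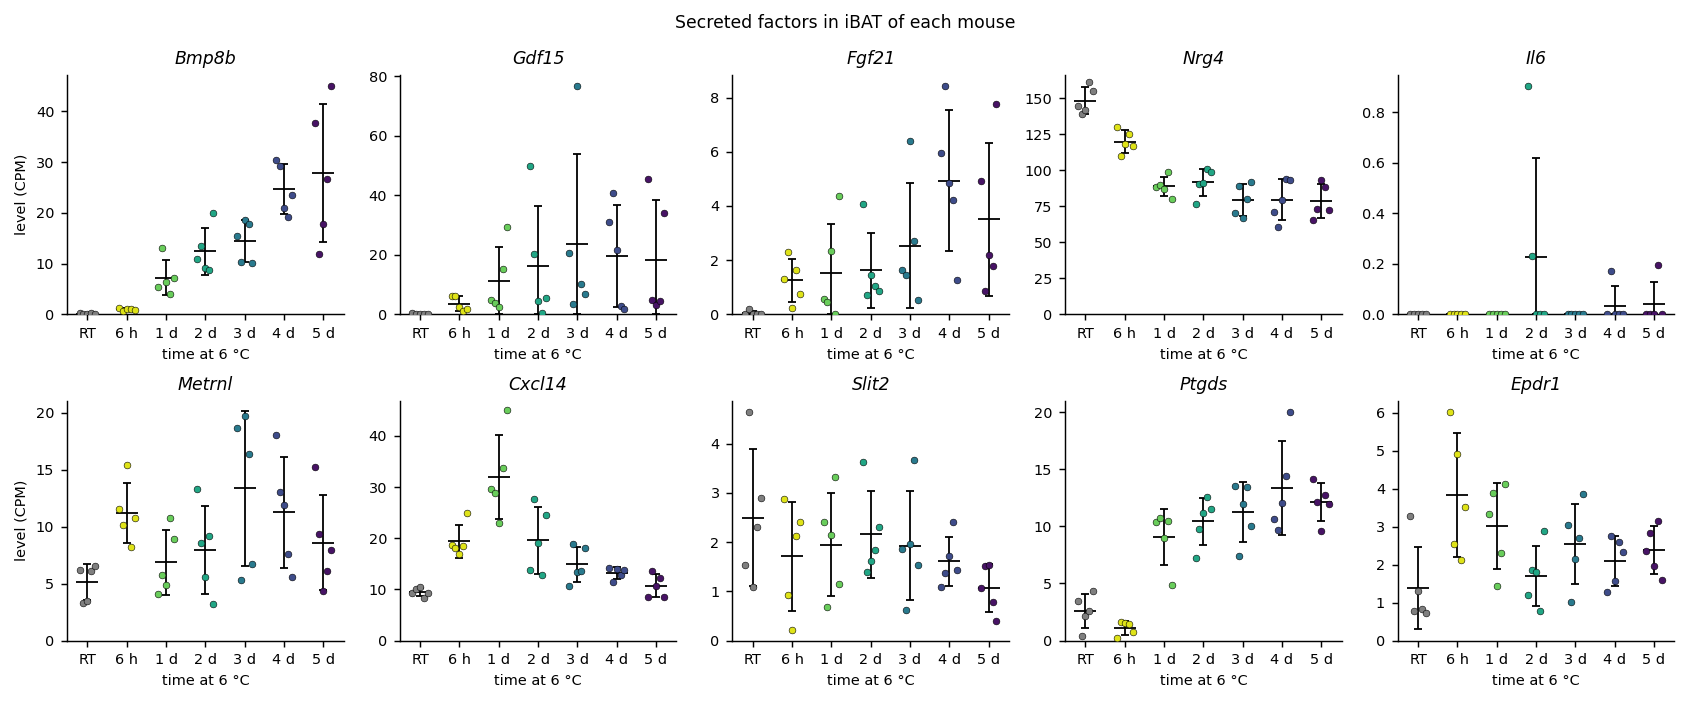
Level of each secreted factor (CPM, vertical axis from 0, scaled separately in each panel) in every mouse at RT and after 6 hours to 5 days at 6 °C. Points are single mice, horizontal marks are means of 5 mice and bars are SD, cut off at 0. Bmp8b reached a mean of 27.9 CPM at 5 days, Nrg4 declined from 148 to 78.4 CPM, Cxcl14 peaked at 32.0 CPM at 1 day, and Gdf15 differed widely between mice of the same duration.

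Bmp8b (chr4:123105165-123132099, plus strand, GRCm38) encodes a ligand that sensitises brown adipocytes to adrenergic input. Only 2 of the 5 RT libraries held a count, 1 in each, which corresponds to 0.193 and 0.164 CPM. At 6 hours the 5 mice held 1.31, 0.693, 1.12, 0.943 and 0.925 CPM. At 1 day they held 5.39, 13.02, 6.27, 4.08 and 7.12 CPM, so that every mouse at 1 day lay above every mouse at 6 hours. The mean went on to 12.4 ± 4.59 CPM at 2 days, 14.4 ± 4.08 CPM at 3 days, 24.6 ± 4.96 CPM at 4 days and 27.9 ± 13.7 CPM at 5 days (SD, n = 5). The ranges of neighbouring durations overlapped from 1 day to 3 days and again between 4 and 5 days. The lowest mouse at 4 days, with 19.3 CPM, was above the highest at 3 days, with 18.7 CPM. At 5 days single mice ranged from 11.9 to 45.0 CPM. Pooled over the libraries, the ratio to RT was 13.1 at 6 hours (95% counting interval 3.23 to 115) and 374 at 5 days (103 to 3096). These wide intervals come from the 2 counts at RT and cover counting error only.

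The near-identical neighbour Bmp8a (chr4:123312645-123343252, minus strand) held 26 counts over 13 of the 35 libraries, against 2187 for Bmp8b. Of the stretches of 76 bases, the read length, within the last 500 bases of each gene's annotated transcripts, 0% were shared with another gene. On the opposite strand, exons of Bmp8b overlap those of Ppie, a cyclophilin, and whether the counting used strand is not given in the sources used here. Ppie was called in none of the 6 comparisons with RT by edgeR, 0 of them reaching an unadjusted p below 0.05, and its mean level stayed between 4.45 and 5.92 CPM over the 7 groups. The genes whose levels followed Bmp8b most closely over the 35 libraries were Plin2, which encodes a lipid droplet coat protein (Spearman's rho 0.918), Rnf185 (0.899) and Lgals9 (0.888). Plin2 had a mean of 469 CPM at 6 hours and 1442 CPM at 5 days. This likeness is a description over libraries that share the same durations.

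Gdf15 (chr8:70629393-70632456, minus strand) encodes a stress-induced hormone that lowers appetite through the brainstem receptor GFRAL. It held 4 counts in all at RT. At 6 hours the mice held 6.29, 6.01, 2.46, 0.943 and 1.67 CPM, all above the highest RT mouse at 0.386 CPM. At 2 days they held 49.8, 20.4, 4.32, 0.263 and 5.48 CPM, so that 1 mouse stayed within the RT range while another was the highest of its group by far. At 3 days they held 20.5, 3.49, 76.7, 10.0 and 6.68 CPM, and at 5 days 45.5, 4.78, 3.05, 4.52 and 33.9 CPM. Both groups lay wholly above RT, with the high values in 1 or 2 mice. Gdf15 passed the filter against RT only at 3 and 5 days, through the cold libraries alone, so a two-sided exact permutation test over all regroupings of the 10 mice was used at every duration. The exact test gave p = 0.00794, the smallest it can give, at 6 hours and at 1, 3, 4 and 5 days, and p = 0.0159 at 2 days. In all, 27 such exact tests were run, those of Gdf15 at 3 and 5 days being added after the values were seen, and their p-values are not adjusted. The ratio of pooled counts to RT was 22.1 at 6 hours (counting interval 8.27 to 83.2) and 171 at 3 days (66.4 to 629). The third mouse of 3 days held 431 of the 614 counts of its group, and without it the fitted log2 fold change went from 7.11 to 5.87. Against RT at 5 days the fitted value went from 6.71 to 6.06 without the first mouse of 5 days. From 6 hours to 5 days Gdf15 rose by a log2 fold change of 2.45 ± 0.64 (SE, adjusted p 0.00491), and without that mouse by 1.79 (adjusted p 0.0265). The ranges overlapped, with 2 of 5 mice at 5 days above every mouse at 6 hours, and no exact test was run for this pair. The 6-hour libraries held 24, 26, 11, 4 and 9 counts. Gdf15 thus passed the filter in this pair mainly through the libraries of 5 days, which limits this call. The genes whose levels were most like Gdf15 over the 35 libraries were Ccl9, a chemokine (Spearman's rho 0.882), Lgals3, which encodes galectin-3 (0.869), and Tagln2, which encodes transgelin-2 (0.854).

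Fgf21 (chr7:45613886-45615490, minus strand) was rarer. A single count was found among the 5 RT libraries. The cold mice held 0.224 to 2.31 CPM at 6 hours, 0 to 4.36 CPM at 1 day, 0.696 to 4.07 CPM at 2 days and 0.514 to 6.41 CPM at 3 days. At 4 days they held 5.96, 8.44, 4.84, 4.21 and 1.26 CPM, and at 5 days 4.94, 0.869, 2.18, 1.77 and 7.77 CPM. Every cold mouse was above every RT mouse except at 1 day, where 1 mouse had no count. The exact test gave p = 0.00794 at 6 hours and at 2, 3, 4 and 5 days, and p = 0.0476 at 1 day. Fgf21 passed the filter at no duration. The pooled ratio to RT was 32.2 at 6 hours (counting interval 5.31 to 1319) and 132.5 at 4 days (23.4 to 5272). The difference between 5 days and 6 hours was not detectable by the exact test (p = 0.111). The genes most like Fgf21 were Upp1, a uridine phosphorylase (Spearman's rho 0.839), Mthfd2, a mitochondrial enzyme of folate metabolism (0.812), and Clptm1l (0.795).

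Bmp8b, Gdf15 and Fgf21 share near absence at RT, so the bases before their starts are shown to let a reader compare them. RefSeq sequences on GRCm38.p6 were used, each the 250 bases upstream of the start, read 5′ to 3′ on the gene's strand. Capitals mark matches, on either strand, to any of 6 motifs: the cAMP response element TGACGTCA, its core TGACG, the ATF4 element TGATGNAAN, the estrogen-related receptor element TCAAGGTCA, the E-box CACGTG and the PPAR element. The windows lie at chr4:123104911-123105160 on the plus strand (Bmp8b), chr8:70632457-70632706 on the minus strand (Gdf15) and chr7:45615491-45615740 on the minus strand (Fgf21).
Bmp8b: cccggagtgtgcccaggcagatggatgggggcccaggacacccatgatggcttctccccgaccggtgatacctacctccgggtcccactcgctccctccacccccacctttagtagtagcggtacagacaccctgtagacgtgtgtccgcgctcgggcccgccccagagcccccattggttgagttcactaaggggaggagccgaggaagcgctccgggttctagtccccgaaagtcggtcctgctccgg
Gdf15: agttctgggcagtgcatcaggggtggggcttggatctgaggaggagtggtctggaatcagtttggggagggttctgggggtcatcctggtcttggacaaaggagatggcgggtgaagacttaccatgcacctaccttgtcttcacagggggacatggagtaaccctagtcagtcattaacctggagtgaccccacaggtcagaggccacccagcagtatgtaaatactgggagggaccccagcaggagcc
Fgf21: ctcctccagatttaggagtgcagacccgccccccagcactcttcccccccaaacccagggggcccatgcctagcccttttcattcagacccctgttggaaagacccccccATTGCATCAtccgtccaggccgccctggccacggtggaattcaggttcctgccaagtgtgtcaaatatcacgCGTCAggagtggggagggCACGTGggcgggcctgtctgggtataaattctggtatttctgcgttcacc
The Fgf21 window held an ATF4 element starting at base -140 from the start, a cAMP response element core at -68 and an E-box at -50. The ATF4 element and the core lay on the strand opposite to the gene. None of the 3 matches overlapped another. The Bmp8b and Gdf15 windows shown held no match to these letters, although a second RefSeq start of Gdf15, inside the annotated gene, had an E-box at -83. Among all 32851 promoter windows of 300 bases in the RefSeq table, which run from 250 bases before to 50 after the start, 3.95% held the ATF4 element, 20.8% the core and 7.15% the E-box. Among the 11 member windows, which cover all 10 genes, these were found in 1, 2 and 2. The full cAMP response element (1.79% of all windows), the PPAR element (0.04%) and the estrogen-related receptor element (0.423%) were in no member window. A match is a run of letters and was not tested for function.

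Nrg4 (chr9:55220222-55326844, minus strand) encodes a ligand made by adipocytes that acts on ERBB4 and limits lipid synthesis in the liver. It was the only one of the 9 tested factors to be called lower against RT in the edgeR fits. The RT mice held 144, 139, 142, 161 and 155 CPM. At 6 hours the mice held 130, 110.0, 118, 125 and 117 CPM, all below the lowest control. At 1 day they held 88.2, 89.8, 87.0, 98.8 and 79.9 CPM, all below the lowest mouse at 6 hours. The log2 fold change was -0.33 ± 0.09 at 6 hours (adjusted p 0.00602) and -0.75 ± 0.10 at 1 day (adjusted p 1.59e-05). It was -0.71 ± 0.10, -0.90 ± 0.11, -0.91 ± 0.11 and -0.93 ± 0.11 at 2, 3, 4 and 5 days (SE, n = 5 against 5, adjusted p 3.18e-06 at 5 days). The groups did not overlap with RT at any duration. In a comparison added after the values were seen, the fall from 6 hours to 1 day was -0.42 ± 0.10 (adjusted p 0.00546). The further difference from 1 day to 5 days, -0.18 ± 0.11, did not pass (adjusted p 0.276).

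Exons of Nrg4 overlap those of Fbxo22 on the opposite strand. Fbxo22, a ubiquitin ligase subunit, had group means of 2.82 to 7.16 CPM, against 78.4 to 148 CPM for Nrg4. Fbxo22 was higher at 6 hours (log2 fold change 0.64 ± 0.25, adjusted p 0.0468), the opposite direction to Nrg4. Over the 35 libraries, the genes most like Nrg4 were Apopt1, a mitochondrial protein gene (Spearman's rho 0.917), Phyh, which encodes a peroxisomal enzyme of fatty acid oxidation (0.899), and Prdx5, a peroxiredoxin (0.832).

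Ptgds (chr2:25466709-25470046, minus strand) changed in the opposite direction to Nrg4 after the opening hours. At RT the mice held 3.47, 0.387, 2.18, 2.63 and 4.34 CPM, and at 6 hours 0.262, 1.62, 1.57, 1.42 and 0.740 CPM, a difference that the exact test did not detect (p = 0.151). At 1 day they held 10.4, 10.7, 8.95, 10.5 and 4.82 CPM, each above every RT mouse. Group means from 2 to 5 days were 10.5 ± 2.07, 11.3 ± 2.6, 13.4 ± 4.13 and 12.1 ± 1.67 CPM (SD, n = 5). The log2 fold change against RT was 1.78 ± 0.36 at 1 day (adjusted p 0.000964) and 2.33 ± 0.34 at 4 days (adjusted p 4.64e-05). The RT libraries held 18, 2, 10, 16 and 24 counts, and Ptgds did not pass the filter at 6 hours against RT. It thus passed from 1 to 5 days mainly through the cold libraries, which limits these calls. The groups from 1 to 5 days did not overlap with RT. From 6 hours to 1 day the fitted log2 difference was 3.00 ± 0.34 (adjusted p 1.42e-05). At 6 hours Ptgds held at most 7 counts per library. It passed the filter there only through the libraries of 1 day and had to differ, so this call is no support. From 1 day to 5 days the difference of 0.41 ± 0.21 did not pass (adjusted p 0.176). Its level stepped up between 6 hours and 1 day, and 1 to 4 days were not compared with each other. The closest genes by Spearman's rho were Gm15241 (0.839), Ccdc122 (0.817) and Epas1 (0.816), the last encoding the hypoxia-inducible factor HIF-2alpha.

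**Figure D2:**
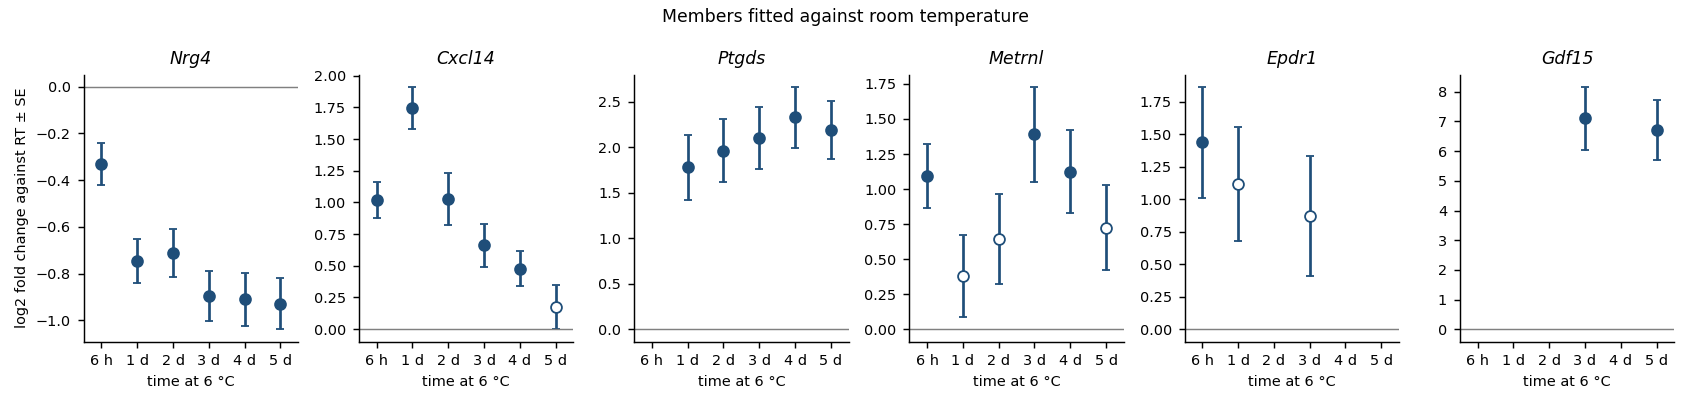
Log2 fold change against RT with its SE (vertical axis, scaled separately in each panel) for the 6 members that were called at 1 or more durations, by time at 6 °C. Filled points passed adjusted p below 0.05 and open points did not, and a missing point means that the gene did not pass the filter on low counts. Nrg4 reached -0.93 at 5 days, Ptgds stayed between 1.78 and 2.33 from 1 day on, and Cxcl14 fell from 1.75 at 1 day to 0.17 at 5 days. The Gdf15 points at 3 and 5 days exist only because the cold libraries passed the filter, and the Ptgds and Epdr1 points exist mainly for that reason.

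Cxcl14 (chr13:56288643-56296551, minus strand), a chemokine that attracts monocytes, rose and came back. The RT mice lay between 8.38 and 10.4 CPM. At 6 hours the mice held 18.6, 18.02, 17.0, 18.4 and 24.97 CPM, and at 1 day 29.5, 28.8, 22.9, 33.7 and 45.0 CPM. The groups did not overlap with RT from 6 hours to 4 days. The log2 fold change was 1.02 ± 0.14 at 6 hours (adjusted p 2.05e-05), 1.75 ± 0.17 at 1 day (adjusted p 7.41e-07) and 0.48 ± 0.14 at 4 days (adjusted p 0.0129). At 5 days the mean of 10.7 ± 2.24 CPM did not differ from the 9.47 ± 0.806 CPM at RT by the test (0.17 ± 0.18, adjusted p 0.459), and with library size scaling in place of TMM the sign turned (-0.07). The call at 4 days was lost with library size scaling (0.34, adjusted p 0.0877) and with all 7 groups in a single fit (0.48, adjusted p 0.0503). The fall from 1 day to 5 days, compared after the values were seen, was -1.57 ± 0.19 (adjusted p 2.50e-05), with every mouse at 5 days below every mouse at 1 day. Cxcl14 is also made by stromal progenitors. The summed level of 6 progenitor markers was 358.4 to 502.6 CPM at RT and 271.0 to 335.7 CPM at 1 day, when Cxcl14 was highest. The summed level of 4 endothelial markers was 229.0 to 280.6 CPM at RT, 392.6 to 489.5 CPM at 6 hours, 457.2 to 545.3 CPM at 1 day and 206.6 to 348.6 CPM at 5 days. The sum moved with Cxcl14 mainly through Kdr and Pecam1. Cdh5 had a mean of 56.9 CPM at RT, 59.1 CPM at 6 hours and 73.8 CPM at 1 day. Tie1 went the other way, with 16.5 CPM at RT, 10.9 CPM at 6 hours and 12.3 CPM at 1 day. The part of cell composition in the Cxcl14 change was not tested. The genes most like it were Nnmt, nicotinamide N-methyltransferase (Spearman's rho 0.858), Eng, an endothelial co-receptor (0.855), and Mylk, myosin light chain kinase (0.855).

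Metrnl (chr11:121701544-121716306, plus strand) encodes meteorin-like, a hormone that promotes eosinophil-dependent thermogenic responses. The RT mice held 3.29 to 6.51 CPM. At 6 hours they held 11.5, 10.2, 15.4, 8.25 and 10.7 CPM, all above RT (log2 fold change 1.10 ± 0.23, adjusted p 0.000878). At 1 and 2 days the ranges overlapped RT, and the changes of 0.38 ± 0.29 and 0.65 ± 0.32 did not pass (adjusted p 0.328 and 0.143). At 3 days they held 18.7, 5.34, 19.8, 16.4 and 6.68 CPM, and 4 of the 5 were above every RT mouse (1.39 ± 0.34, adjusted p 0.00463). At 4 days the change was 1.12 ± 0.30 (adjusted p 0.00665), and at 5 days it was 0.73 ± 0.30 and did not pass (adjusted p 0.0670). A single mouse decided some of these calls: the change at 2 days passed without the fifth mouse (0.83, adjusted p 0.0426), and that at 5 days without the third or the fourth (adjusted p 0.0209 and 0.0489). The direct comparison of 1 day with 6 hours gave -0.73 ± 0.25 (adjusted p 0.0562), which did not pass, although it passed without the fourth mouse of 6 hours or without the fourth or the fifth mouse of 1 day (adjusted p 0.0485, 0.0152 and 0.0359). The genes most like Metrnl were Ccl9 (Spearman's rho 0.789), Alox5ap (0.738) and Ms4a6c (0.721), of which Ccl9 also led the genes most like Gdf15.

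Epdr1 (chr13:19591706-19619927, minus strand) rose at 6 hours, from 1.38 ± 1.09 to 3.82 ± 1.63 CPM (log2 fold change 1.44 ± 0.43, adjusted p 0.0120). A single RT mouse, with 3.28 CPM, lay within the range at 6 hours, while the 4 others held 0.724 to 1.31 CPM. The RT libraries held 17, 4, 6, 5 and 4 counts. Epdr1 thus passed the filter against RT mainly through the cold libraries, which limits its calls. The changes at 1 day, 1.12 ± 0.44 (adjusted p 0.0558), and at 3 days, 0.87 ± 0.46 (adjusted p 0.156), did not pass. Without that RT mouse they passed, at 1.71 (adjusted p 0.00474) and 1.47 (adjusted p 0.0196), and the change at 6 hours was 2.04. Without the third mouse of 1 day, the change at 1 day also passed (1.31, adjusted p 0.0315). The genes most like Epdr1 were Atp2a2, which encodes a calcium pump (Spearman's rho 0.659), Kcnq1ot1 (0.648) and Taf2 (0.636), weak values in sparse counts. Slit2 (chr5:47983138-48307733, plus strand), whose cleaved fragment promotes thermogenesis, held 1.09 to 4.65 CPM at RT and 0.398 to 1.53 CPM at 5 days. The exact test on Slit2 at 5 days gave p = 0.0317, unadjusted, with 3 of 5 mice below every control. At 6 hours and 1 day, where Slit2 passed the filter, its changes of -0.57 ± 0.48 and -0.37 ± 0.43 did not pass the edgeR test (adjusted p 0.351 and 0.537). Its most similar genes, again weakly, were Ankrd44 (Spearman's rho 0.64), Dicer1 (0.632) and Ptpra (0.622). Il6 (chr5:30013114-30019981, plus strand), a cytokine of which brown fat can be a source, had 9 counts in 4 of the 35 libraries. It had 0 counts at RT, which allows a pooled level of up to 0.113 CPM, and 6 of its 9 counts came from 1 mouse at 2 days. A change in Il6 was not detectable at this depth.

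Among mice held in the cold for the same time, 5 of the 36 pairs of members were related, all of them among Gdf15, Metrnl, Fgf21 and Nrg4. The share of related pairs over all genes was not computed. These relations were examined after the values were seen. For each of the 30 cold mice, the mean of its duration was subtracted from the log2 CPM. In all, 54 relations were computed among 9 members and with the macrophage and brown adipocyte markers. Each marker set was taken as the mean log2 CPM of its genes, not as their sum. Permutation within durations (100000 draws) and Benjamini-Hochberg adjustment over the 54 left 11 relations with an adjusted p of Pearson's r below 0.05. Gdf15 was positively related to Metrnl, with r = 0.665 (p = 0.00075, adjusted p 0.0051) and rho = 0.705 (p = 0.0002, adjusted p 0.0027). Gdf15 was also positively related to Fgf21, with r = 0.55 (p = 0.0031, adjusted p 0.017) and rho = 0.504 (p = 0.0093, adjusted p 0.046). Nrg4 went the other way, with r = -0.756 to Gdf15 (p = 3e-05, adjusted p 0.00081, rho = -0.754, p = 6e-05, adjusted p 0.0016). Its r was -0.684 to Metrnl (p = 0.00062, adjusted p 0.0048, rho = -0.685, p = 0.00045, adjusted p 0.004) and -0.624 to Fgf21 (p = 0.00044, adjusted p 0.004, rho = -0.6, p = 0.0013, adjusted p 0.0088). The sixth pair, Fgf21 and Metrnl, did not pass, with r = 0.344 (p = 0.091, adjusted p 0.24) and rho = 0.35 (p = 0.083, adjusted p 0.24). With the 2 mice most distant from the median of the x measure left out, the 5 values of r that passed were 0.759, 0.456, -0.739, -0.685 and -0.572. Without the mouse of 2 days and the mouse of 3 days that held the most Gdf15, they were 0.589, 0.425, -0.693, -0.621 and -0.534.

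The mouse with the most Gdf15 had the least Nrg4 of its group in 5 of the 6 durations, from 1 day to 5 days. It also had the most Fgf21 in 4 durations and the most Metrnl in 3. The relations of Bmp8b count among the 54 but are given as a description with no test, and its value to Gdf15 within durations was r = 0.412 and rho = 0.493. Cxcl14, Slit2, Ptgds and Epdr1 took part in none of the 11 relations.

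Cell type markers were related to Gdf15, Metrnl and Nrg4 within durations. Gdf15 had r = 0.716 to the mean of the macrophage markers (p = 0.00038, adjusted p 0.004, rho = 0.687, p = 0.00084, adjusted p 0.0065). To the mean of the brown adipocyte markers its r was -0.82 (p = 1e-05, the smallest that the draws can give, adjusted p 0.00054, rho = -0.787, p = 3e-05, adjusted p 0.0016). Metrnl had r = 0.599 and -0.733 to these means (adjusted p 0.017 and 0.002), with rho = 0.582 and -0.722 (adjusted p 0.028 and 0.0027). Nrg4 had r = -0.631 and 0.681 (adjusted p 0.027 and 0.002), with rho = -0.571 and 0.675 (adjusted p 0.046 and 0.0032). Fgf21 did not pass with either marker mean, with r = 0.326 and -0.352 (adjusted p 0.24 for each) and rho = 0.278 and -0.333 (adjusted p 0.34 and 0.24). The mouse with the most Gdf15 was highest of its group in macrophage markers in 2 of the 6 durations and lowest in brown adipocyte markers in 4. All 6 macrophage markers and all 7 brown adipocyte markers were detected in every group, and the part of cell composition in these relations was not tested. Within durations, the total count per library had r = -0.24 to Gdf15 and -0.027 to Nrg4.

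**Figure D3:**
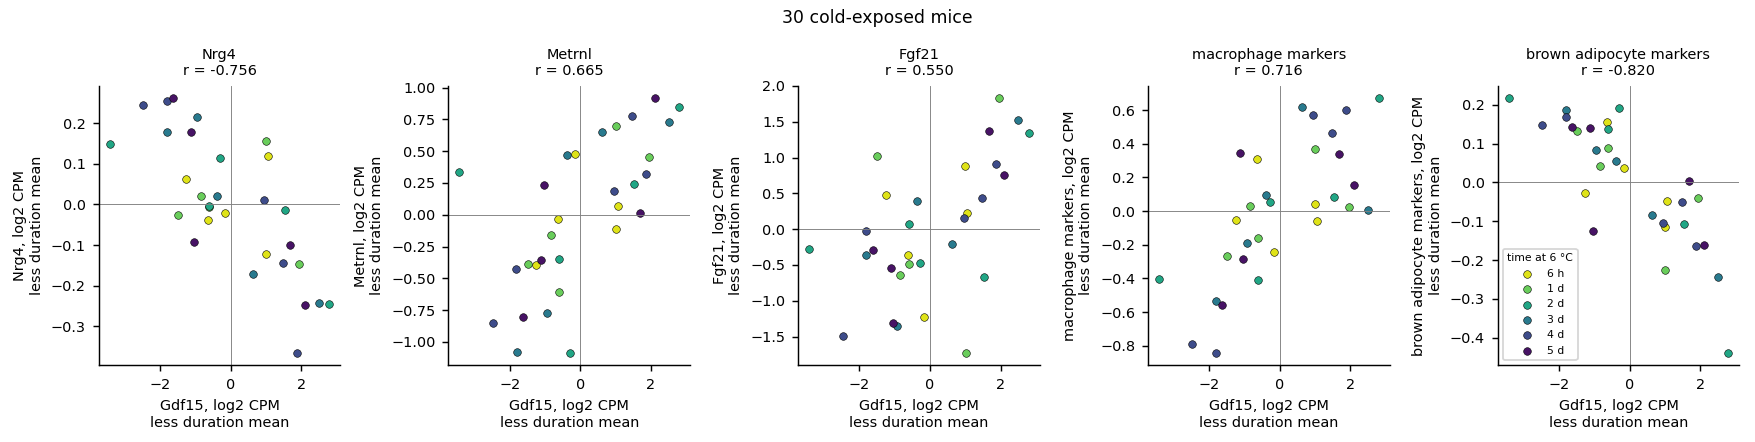
Gdf15 (horizontal axis) against Nrg4, Metrnl, Fgf21 and the macrophage and brown adipocyte markers (vertical axes) in the 30 cold mice. All are log2 CPM less the mean of the mouse's duration, and each marker set is the mean log2 CPM of its genes. Each point is a mouse, coloured by its time at 6 °C. Mice with more Gdf15 had less Nrg4 (r = -0.756), more Metrnl (0.665), more Fgf21 (0.55), a higher macrophage marker mean (0.716) and a lower brown adipocyte marker mean (-0.82).

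On the receiving side, 20 receptor genes for these factors were examined and 13 passed the filter at each duration. Between 3 and 6 of them were called lower against RT and at most 1 higher, where 14.7% to 21.0% of all genes were lower and 16.4% to 21.5% higher, the same background as for each list that follows. The median log2 fold change was -0.30 at 5 days, against -0.02 over all genes tested, whose median was between -0.03 and -0.01 at the 6 durations. Kit, which encodes the stem cell factor receptor that METRNL can bind, was lower from 6 hours to 4 days (log2 fold change -1.52 ± 0.29 at 1 day, adjusted p 0.000556). Il6ra, the IL-6 receptor subunit, was lower at 5 of the durations, with -1.32 ± 0.24 at 1 day (adjusted p 0.000367), the exception being 4 days (-0.46 ± 0.23, adjusted p 0.134). Erbb4, the receptor for NRG4, was singled out after its values were seen, because it fell together with its ligand. It had 7.24 ± 0.815 CPM at RT and 1.06 ± 0.730 CPM at 1 day, and its log2 fold change was between -2.71 and -1.79 at the 6 durations. Erbb4 passed the filter mainly through the RT libraries, where it was high, so its fall is a description and no support. Robo4, an endothelial receptor, was higher at 6 hours (0.70 ± 0.19, adjusted p 0.00565). Acvr1c, which encodes the receptor ALK7, was higher at 2 days (0.63 ± 0.13, adjusted p 0.00205) and 4 days. Klb, the co-receptor for FGF21, had 15.3 ± 4.63 CPM at RT and 21.1 ± 3.58 CPM at 5 days (adjusted p 0.0652). Gfral, the GDF15 receptor of the brainstem, did not pass the filter.

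Other genes named for the BMP8B and GDF15 family were low. Of 16 of them, which include Bmp1, a metalloproteinase gene and not a ligand, 4 or 5 passed the filter at each duration, none was called higher by edgeR against RT (Bmp1 reached an unadjusted p below 0.05 at 1 duration) and 1 was called lower each time, with list medians of -0.46 to -0.08. That gene was Gdf5, named after its values were seen, which had 5.38 ± 2.62 CPM at RT and group means of 0.149 to 0.920 CPM in the cold. Gdf5 passed the filter through the RT libraries and had to differ, so these calls are no support. Of 10 target genes of SMAD signalling, the pathway that BMP receptors use, 7 passed the filter and 0 to 2 were called in either direction at a given duration, with list medians of -0.42 to -0.05. Smad7, an inhibitory SMAD, was higher at 6 hours (1.37 ± 0.23, adjusted p 0.000114) and through 4 days. Id2 was lower at 6 hours (-0.93 ± 0.14, adjusted p 2.72e-05) and higher at 3 days (0.78 ± 0.19, adjusted p 0.00503), and Id3 was lower at 4 and 5 days (-0.66 ± 0.17 at 5 days, adjusted p 0.00431).

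Of 11 genes of the feedback that fibroblast growth factors and ERK kinases induce, 8 to 10 passed the filter, and 5 to 7 were called higher and 0 to 2 lower at each duration. Their median log2 fold change was 0.90 at 6 hours and 0.76 at 5 days. Spry4, a feedback inhibitor of receptor tyrosine kinase signalling, rose from 3.28 ± 0.835 to 30.5 ± 4.63 CPM at 6 hours (3.17 ± 0.18, adjusted p 5.52e-10). Dusp6, an ERK phosphatase, rose from 21.9 ± 8.76 to 129 ± 21.4 CPM at 6 hours (2.53 ± 0.20, adjusted p 2.52e-08). Dusp5 was higher by 2.43 ± 0.41 at 1 day and 2.44 ± 0.41 at 2 days (adjusted p 0.000222 and 0.000320). With a mean of 1.04 CPM at RT it passed the filter through the cold libraries and had to differ, so its calls are no support. The same holds for Etv5, named after its values were seen, with 1.23 CPM at RT and 2.52 CPM at 4 days, the only duration where it passed the filter. The counts and medians of this list include both genes. Dusp4 did not pass at 6 hours (0.14 ± 0.29, adjusted p 0.733) and reached 1.97 ± 0.21 at 5 days (adjusted p 9.51e-07). The genes called lower, named after their values were seen, were Egr1, an immediate early transcription factor, at 6 hours, 2 days and 4 days (-1.30 ± 0.25 at 4 days, adjusted p 0.000653), and Spry2, a relative of Spry4, at 4 days (-0.59 ± 0.22, adjusted p 0.0402). Dusp6 and Spry4 were at their highest mean level at 6 hours, when Fgf21 was at 1.25 ± 0.806 CPM. A link between these genes and Fgf21 was not tested.

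Of 15 genes of the ATF4 stress response, a program that also contains Fgf21 and Gdf15 in other tissues, 11 or 12 passed the filter, and 3 to 6 were called higher and 1 or 2 lower. The median log2 fold change was 0.25 at 6 hours and 0.66 at 5 days. Trib3, a pseudokinase, did not pass at 6 hours (-0.19 ± 0.34, adjusted p 0.681) and rose by 5 days (1.97 ± 0.26, adjusted p 9.85e-06). Atf5, a related transcription factor, was higher at every duration, from 1.22 ± 0.17 at 6 hours to 1.92 ± 0.20 at 5 days. Atf3 had a mean of 0.736 CPM at RT and 4.65 CPM at 6 hours (2.58 ± 0.37, adjusted p 2.47e-05). It passed the filter there only through the cold libraries and had to differ, so this call is no support. It did not pass the filter later, when its means were 4.29, 5.98, 6.12, 6.23 and 7.72 CPM from 1 to 5 days. Nupr1, a stress-induced chromatin protein, was lower at every duration, with -2.12 ± 0.25 at 2 days (adjusted p 1.54e-05). The list therefore held members that moved in opposite directions.

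Among 18 other factors secreted by brown fat, 12 or 13 passed the filter, and 3 to 5 were called higher and 1 to 5 lower, with list medians of -0.07 to 0.34. Fgf9 had 0.987 ± 0.518 CPM at RT and 18.1 ± 5.45 CPM at 6 hours (4.11 ± 0.32, adjusted p 2.41e-08). It passed the filter through the cold libraries and had to differ, so this call is no support. Fgf1 rose from 5.45 ± 1.29 to 26.6 ± 1.53 CPM at 1 day (2.28 ± 0.16, adjusted p 3.94e-08). Fgf9 and Fgf1 encode fibroblast growth factors. Kng2, a kininogen gene, rose at 1 day and later, with 1.17 ± 0.11 at 2 days (adjusted p 2.20e-06). Angptl4, an inhibitor of lipoprotein lipase, fell at each duration, with -1.76 ± 0.15 at 6 hours (adjusted p 4.21e-08).

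**Figure D4:**
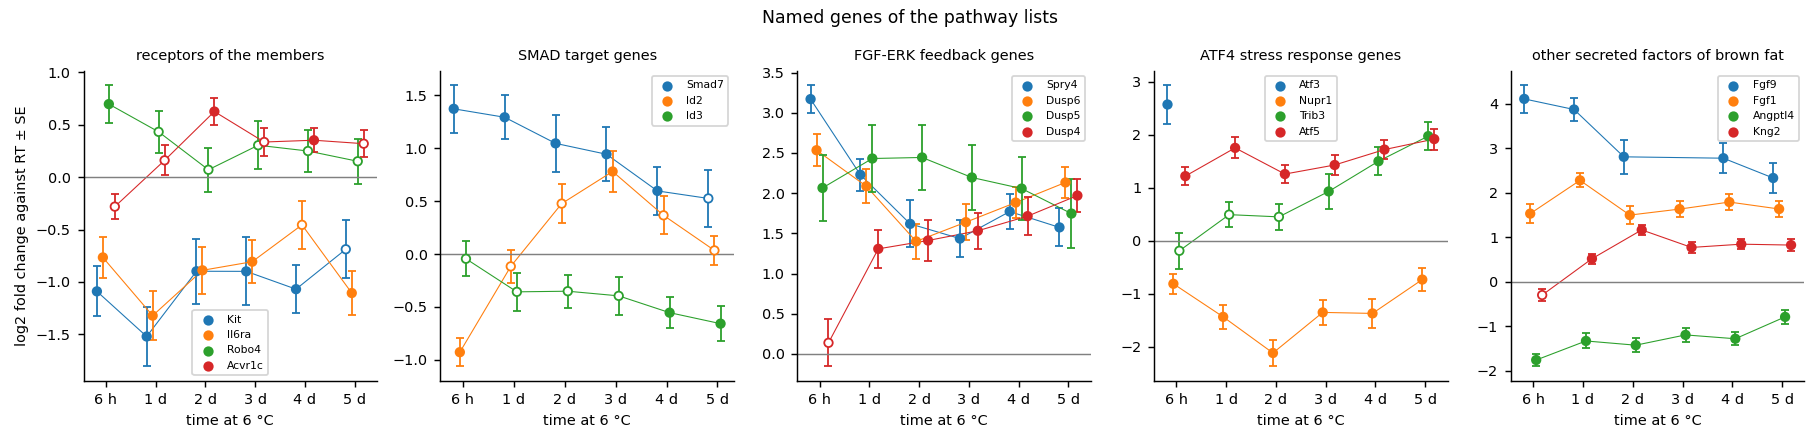
Log2 fold change against RT with its SE (vertical axis, scaled separately in each panel) for the named genes of 5 lists by time at 6 °C. Filled points passed adjusted p below 0.05, open points did not, and points are missing where a gene did not pass the filter. Atf3, Dusp5 and Fgf9 have points only because the cold libraries passed the filter. Spry4 and Dusp6 stood at 3.17 and 2.53 at 6 hours, Trib3 climbed to 1.97 at 5 days, Nupr1 stayed below 0, and Fgf9 fell from 4.11 at 6 hours to 2.33 at 5 days.

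Within the cold, the factors divided by when they changed. Between 6 hours and 5 days, 2 of the 6 factors that passed the filter were higher (Gdf15 and Ptgds) and 2 lower (Nrg4 and Cxcl14), where 19.0% and 16.9% of the 10294 genes tested were called. Between 6 hours and 1 day, 2 of 6 were higher (Cxcl14 and Ptgds) and 1 lower (Nrg4), against 9.19% and 7.75% of genes. Between 1 day and 5 days, none was called higher by edgeR or by DESeq2, with 0 at an unadjusted p below 0.05, and 1 was lower (Cxcl14), against 10.7% and 8.68% of genes. Both comparisons with 1 day were added after the values were seen. Ptgds entered the comparisons with 6 hours only through the later libraries and had to differ, so its calls there are no support. Gdf15 entered them mainly through the later libraries, which limits its call at 5 days. Metrnl and Epdr1 did not pass any of the 3 tests, with log2 differences of -0.73 to 0.34 and -0.66 to -0.33.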

How the data were processed

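Gene counts were deposited by the authors for 35 QuantSeq 3′ libraries, 1 per mouse. Per the submitters' processing notes, reads were aligned with STAR 2.6.1d to GRCm38 and counted with HTSeq 0.11.2. The strand setting of the counting is not given in the sources used here. Of 55421 identifiers, 267 have no gene symbol. Mitochondrially encoded genes took 40.2% of counts and Gm42418 took 11.6%. Library totals were 3846016 to 6047247, so 3 counts correspond to 0.496 to 0.78 CPM. Counting intervals (95%) and floors of 3 counts cover counting error only. No 2 libraries were identical.

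Each pair of groups was fitted separately with edgeR 4.0.16 in R 4.3.3 (filterByExpr, TMM, quasi-likelihood test, Benjamini-Hochberg adjustment over all genes tested, threshold 0.05), and the method was tested on simulated data. Members under the filter, and Gdf15 against RT throughout, were tested with exact two-sided permutation tests on log2 CPM (prior count 2). SE is the log2 fold change divided by the square root of F. The members and lists were chosen with earlier results of these data known. From each list, up to 4 called genes with the largest changes and a mean of at least 20 counts were named, and the 3 genes with the highest Spearman correlation were named for each member with a mean of at least 1 CPM. Alternatives were DESeq2 1.42.0, other scalings, no filter, a joint fit, a replicate block and leaving out each library. Replicate numbers came from the titles and were not found to pair mice.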

Additional observations from a re-analysis of the deposited data

Results flagged for a closer look

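Among 61 groups of 5 mice checked for a value far from the rest by Dixon's criterion, 5 were found, and chance gives about 1 in 20. They were Gdf15 at 76.7 CPM in the third mouse of 3 days, Fgf21 at 4.07 CPM and Il6 at 0.905 CPM in the first mouse of 2 days, Cxcl14 at 24.97 CPM in the fifth mouse of 6 hours, and Epdr1 at 3.28 CPM in the first RT mouse.

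Between durations in the cold, edgeR found differences in 4 factors. Those of Ptgds are no support, since it held at most 7 counts per library at 6 hours and passed the filter only through the later libraries. Gdf15 passed it mainly through the libraries of 5 days, which limits its difference. From 6 hours to 5 days, the log2 differences were -0.60 for Nrg4 (adjusted p 0.000196), 2.45 for Gdf15 (adjusted p 0.00491), -0.84 for Cxcl14 (adjusted p 0.000619) and 3.42 for Ptgds (adjusted p 2.61e-08). Comparisons chosen after seeing the data gave -0.42 for Nrg4 (adjusted p 0.00546), 0.72 for Cxcl14 (adjusted p 0.00647) and 3.00 for Ptgds (adjusted p 1.42e-05) from 6 hours to 1 day, and -1.57 for Cxcl14 (adjusted p 2.50e-05) from 1 day to 5 days.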

How the results depend on the processing

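Of 816 alternative values of single factors, 795 kept their direction and their side of the threshold, 18 newly passed, 2 no longer passed (Cxcl14 at 4 days, with library size scaling and in the joint fit) and 1 turned its sign (Cxcl14 at 5 days with library size scaling, -0.068, adjusted p 0.778). Library size scaling moved the median log2 fold change of all genes against RT by -0.13 to -0.23. Counts of called factors moved by more than 1.5 times in 5 comparisons. At 1 day the count was 3, and it was 5 with DESeq2, 5 without a filter, 6 in the joint fit and 3 to 5 when leaving out 1 mouse (5 without RT replicate 1 or replicate 3 of 1 day). At 2 days it was 3, and 5 with DESeq2, without a filter and in the joint fit. At 5 days it was 3, and 5 without a filter and in the joint fit. In the comparisons added after seeing the data, without a filter it went from 3 to 5 between 6 hours and 1 day and from 1 to 2 between 1 day and 5 days. Filtering decides there which low-count factors are tested. Gdf15 from 6 hours to 1 day (1.68 ± 0.60, adjusted p 0.0640) passed when replicate 1, 2 or 3 of 1 day was left out (adjusted p 0.0489, 0.0444 and 0.0250), and was 0.89 without replicate 5 of 1 day. Metrnl from 6 hours to 5 days (-0.37 ± 0.26, adjusted p 0.292) passed without replicate 1 of 5 days (-0.67, adjusted p 0.0360). Same-numbered mice deviated together by a median correlation of -0.007 (range -0.226 to 0.246). With the replicate number as a block, the counts were unchanged at 4, 3, 3, 5, 4 and 3 for 6 hours to 5 days against RT. Depth limits Il6, Fgf21, Slit2 and Epdr1, whose mean count per library was at most 11.5.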
